A study of Homo sapiens with 12 samples.

Results

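Transcripts of 9 neuroendocrine and neuronal marker genes were measured in LNCaP cells in which FOXA1 or TRIM28 had been knocked down. The members were the rows whose symbol equals ENO2, NSG1, SYT4, SYP, TUBB3, SCG5, CHGA, CHGB or INSM1. All 9 were found among the 60835 symbols of the read count and FPKM tables, so none was absent, although INSM1 held a single read in 1 of 12 libraries. LNCaP is a human prostate cancer cell line of luminal character that responds to androgen. Poly(A)-selected RNA was sequenced from 12 libraries in 4 groups of 3, which the series design calls biological replicates. The groups were cells given shRNA-FOXA1, cells given a control shRNA for that knockdown, cells given shRNA-TRIM28, and cells given a separate control shRNA. By the treatment labels all groups thus carried a short hairpin RNA, although the knockdown columns of the deposited tables are named SI. The sources used here give neither the hairpin sequences nor the time of harvest. Titles of the knockdown libraries read SH control and the genotype labels of some replicates name other gene numbers, so the treatment labels and the control titles set the groups.

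Neuroendocrine cells store hormones and peptides in dense-core granules and share with neurons the proteins of regulated secretion, such as granins, synaptophysin and synaptotagmins. Prostate adenocarcinoma can acquire such markers when its luminal, androgen-driven program is lost, and pathologists use several of them to recognise neuroendocrine tumours. FOXA1 is a pioneer factor that opens chromatin for the androgen receptor in luminal cells, and TRIM28 is a scaffold for silencing complexes that KRAB zinc finger proteins bring to DNA. REST, a zinc finger repressor, silences many neuronal genes outside the nervous system by binding the RE1 element and recruiting RCOR1, SIN3 proteins and histone deacetylases.

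The libraries held between 12256092 and 15152890 counts, at which 3 reads amount to between 0.198 and 0.245 CPM (reads scaled to the library total). FOXA1 stood at 29.4%, 29% and 29.5% of the control mean (FPKM) in the FOXA1 knockdown libraries, and at 50.3%, 45.4% and 72.5% in the TRIM28 knockdown libraries. TRIM28 stood at 34%, 30.1% and 14.5% of its control mean in the TRIM28 knockdown libraries. All 10 luminal prostate markers were above 0 in every library, and their summed level was 792 to 822 FPKM in FOXA1 knockdown against 1230 to 1250 FPKM in FOXA1 control cells, and 796 to 850 FPKM in TRIM28 knockdown against 1230 to 1250 FPKM in TRIM28 control cells. Fewer cells of a type and less RNA per cell cannot be told apart in bulk RNA. The 10 leukocyte markers summed to 10.2 to 11 FPKM in FOXA1 knockdown against 13.7 to 15.9 FPKM in FOXA1 control cells, and 10.6 to 11.2 FPKM in TRIM28 knockdown against 14 to 14.7 FPKM in TRIM28 control cells. LCP1, at 7.23 FPKM or more in every library, made up most of this, and PTPRC reached at most 0.034 FPKM. Among the 12 libraries, replicate 3 of the TRIM28 knockdown was unlike the rest. A chi-square comparison of its counts with replicates 1 and 2 gave 22.6 and 20.4 per degree of freedom, against 2.94 to 5.73 for every other pair of replicates. Its 11 stromal markers summed to 92.7 FPKM, against 14.8 and 16.9 FPKM in replicates 1 and 2, with COL3A1 at 34.5 FPKM. In the other groups they summed to 14.9 to 17.5 FPKM in FOXA1 knockdown against 11.4 to 12.3 FPKM in FOXA1 control cells, and to 10.6 to 12.4 FPKM in TRIM28 control cells. Of 9 tested stromal markers in the FOXA1 knockdown, VIM (0.64), TAGLN (0.77) and ACTA2 (1.10) were called higher and PDGFRB (-0.91) lower. In the TRIM28 knockdown ACTA2 (1.41) was called higher of 8 (all log2 fold changes by edgeR). The PDGFRB call was lost in 6 fits with other settings, among them DESeq2 (adjusted p = 0.121), and in 3 that left out a library. Of all tested genes, 26.1% were called higher and 26.3% lower in the FOXA1 knockdown, and 13.3% and 13.3% in the TRIM28 knockdown. The part of the stromal differences in the members' changes was not tested. Neuronal genes that are not members were also above 0 in replicate 3 of the TRIM28 knockdown. NCAM1 was at 1.03 FPKM, STMN2 at 0.472 FPKM and DCX at 0.382 FPKM, against at most 0.134, 0.0367 and 0.0687 FPKM in any other library. In the TRIM28 knockdown, member calls and the call counts of related gene lists that changed without this library are given both ways. Other values of that knockdown include it unless stated.

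RefSeq promoter windows on GRCh38.p14, from 250 bases before to 50 bases after a transcript start, were available for 7 of the 9 members; CHGB and INSM1 had no entry. Those of the 3 members that rose in both knockdowns, and of SCG5, whose values were lower, are printed 5′ to 3′ on the strand of the gene so that their base composition and the single motif match can be seen. Capitals mark that match, which lies in SYT4.
ENO2 chr12:6914330-6914629, plus strand: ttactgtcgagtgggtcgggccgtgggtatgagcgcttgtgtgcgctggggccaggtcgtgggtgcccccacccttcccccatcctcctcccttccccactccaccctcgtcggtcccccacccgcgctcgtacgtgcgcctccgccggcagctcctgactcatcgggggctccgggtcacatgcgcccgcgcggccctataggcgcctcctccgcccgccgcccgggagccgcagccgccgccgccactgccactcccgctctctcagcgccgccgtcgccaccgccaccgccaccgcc
NSG1 chr4:4386852-4387151, plus strand: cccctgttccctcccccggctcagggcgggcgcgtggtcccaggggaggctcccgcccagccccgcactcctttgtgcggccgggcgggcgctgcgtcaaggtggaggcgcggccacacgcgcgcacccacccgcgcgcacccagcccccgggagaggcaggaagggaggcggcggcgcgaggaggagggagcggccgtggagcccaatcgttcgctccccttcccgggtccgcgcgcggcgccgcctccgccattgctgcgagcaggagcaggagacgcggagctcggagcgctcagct
SYT4 chr18:43277441-43277740, minus strand: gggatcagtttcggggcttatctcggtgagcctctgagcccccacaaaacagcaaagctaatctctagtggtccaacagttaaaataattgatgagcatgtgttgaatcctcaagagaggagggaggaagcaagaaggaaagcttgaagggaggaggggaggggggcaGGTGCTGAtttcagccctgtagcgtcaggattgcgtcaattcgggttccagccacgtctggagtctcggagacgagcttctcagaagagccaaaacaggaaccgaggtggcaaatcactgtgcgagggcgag
SCG5 chr15:32641460-32641759, plus strand: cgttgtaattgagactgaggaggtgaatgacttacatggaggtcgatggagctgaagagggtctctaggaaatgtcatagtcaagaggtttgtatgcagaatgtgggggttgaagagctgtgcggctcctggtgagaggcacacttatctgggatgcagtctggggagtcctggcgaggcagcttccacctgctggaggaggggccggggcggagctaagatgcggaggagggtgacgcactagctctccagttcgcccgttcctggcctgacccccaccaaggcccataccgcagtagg

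These windows differ in composition. The ENO2 window was 75% G and C with 38 CpG dinucleotides, and the NSG1 window 77.3% with 41, against medians of 58.7% and 14 over 35116 promoters. SYT4 (53.3%, 11 CpG) and SCG5 (58%, 11 CpG) were below both medians. A second RefSeq start of NSG1 lay upstream and was 67.3% G and C. Both strands of each window were searched for the FOXA core letters TGTTTAC and TATTTAC and for the left and right parts of the RE1 element, TCAGCACC and GGACAGCG. These occur in 3.42%, 2.67%, 1.67% and 1.63% of all 35116 windows. The left RE1 letters were found in SYT4 on the strand opposite the gene, starting 82 bases before the start, and read GGTGCTGA on the printed strand; no other member window held any of the 4 strings. A string match is not a binding site, and its absence from this window says nothing of the factors.

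Levels of the members spanned a wide range. FPKM scales reads to gene length and library total, so levels can be compared between genes. ENO2, the neuronal isoform of the glycolytic enzyme enolase, was the highest member in all 4 groups, at 32.4 ± 3, 4.68 ± 0.79, 14.7 ± 1.5 and 5.55 ± 1.3 FPKM in FOXA1 knockdown, FOXA1 control, TRIM28 knockdown and TRIM28 control cells (SD, n = 3 each). Among genes above 0 FPKM this placed ENO2 at the 93.8th, 73.5th, 87th and 75th percentile of those groups. SYT4 came next in each group. In FOXA1 knockdown cells the order went on with NSG1 and SYP, and the libraries of these first 4 did not overlap between neighbours. TUBB3, SCG5 and CHGA then overlapped at means of 0.205 to 0.261 FPKM, above CHGB at 0.0482 FPKM. In FOXA1 control cells SCG5 at 1 FPKM overlapped both SYT4 above it and SYP below it. NSG1 came after these there, so the place of NSG1 and SCG5 in the order differed between the groups. In TRIM28 knockdown cells NSG1, SCG5, SYP, TUBB3 and CHGA each overlapped their neighbour. In TRIM28 control cells SYT4 and SCG5 overlapped, as did SYP and NSG1, and TUBB3 and CHGA.

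**Figure D1:**
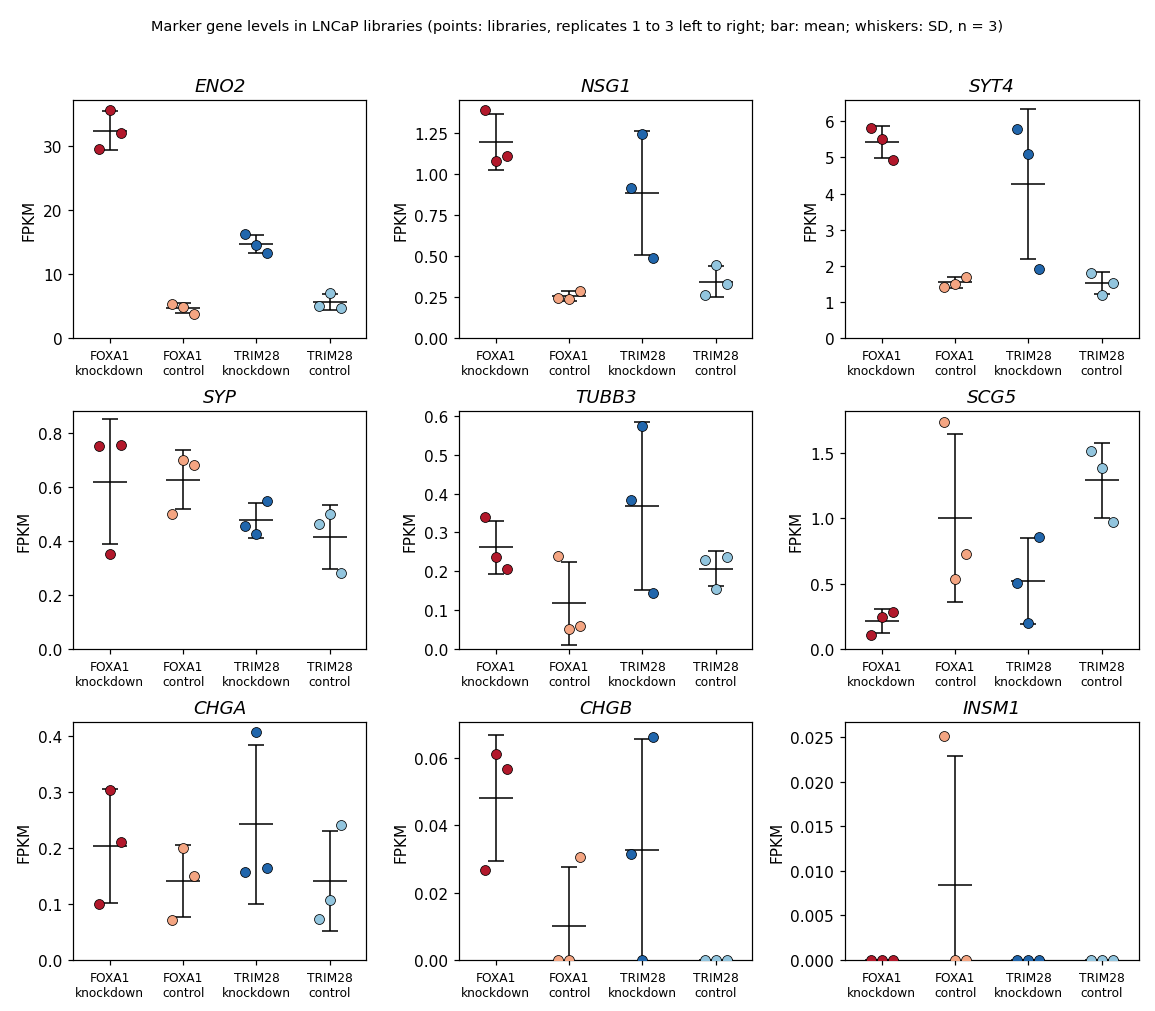
FPKM of the 9 marker genes in each library, by group, on a separate linear axis per gene starting at 0; points are libraries, the bar is the mean and the whiskers are the SD (n = 3). ENO2, NSG1 and SYT4 lie above their controls in both knockdowns, whereas CHGA, CHGB and INSM1 stay under 0.5 FPKM in all 12 libraries.

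The FOXA1 knockdown was compared with its own control to ask which genes depend on FOXA1. ENO2, SYT4 and NSG1 rose, by 6.84, 3.49 and 4.61 times, and SYP did not pass the test. Changes were tested with edgeR's quasi-likelihood test on the counts, adjusted over all genes tested by the Benjamini-Hochberg method with a threshold of 0.05. At that threshold 26.1% of 14953 tested genes were called higher and 26.3% lower, so calls were common. Of the 9 members, 5 passed the filter on low counts. Of these 5, 4 were called higher and none lower, but TUBB3 entered the test only through its knockdown libraries. SCG5, with every knockdown library below every control library, did not pass the filter and so could not be called lower here. The members were chosen with earlier results of these data known, so such counts are a description only.

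ENO2 (ENSG00000111674, GRCh38 chromosome 12, 6913745 to 6923698, plus strand) had 1269, 1337 and 1298 reads in the FOXA1 knockdown libraries, against 211, 208 and 143 in the control libraries. All 3 knockdown libraries lay above every control library. The log2 fold change was 2.77 (SE 0.10, adjusted p = 6.87e-18 by edgeR), and 0.996% of tested genes changed by at least as much in either direction. Leaving out any library of the pair gave 2.65 to 2.87. In the GENCODE annotation the start of ENO2 overlaps the end of LRRC23 on the same strand, and LRRC23 held 272 reads over the 3 knockdown and 296 over the 3 control libraries.

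SYT4 (ENSG00000132872, chromosome 18, 43267892 to 43277535, minus strand) encodes a synaptotagmin of dense-core vesicles. It had 347, 288 and 278 reads in the FOXA1 knockdown libraries, against 78, 89 and 89 in the control libraries. The groups did not overlap, and the log2 fold change was 1.80 (SE 0.13, adjusted p = 1.23e-12 by edgeR).

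NSG1 (ENSG00000168824, chromosome 4, 4348140 to 4419058, plus strand) encodes an endosomal protein that sorts receptors in neurons. Reads numbered 88, 60 and 66 in the FOXA1 knockdown libraries, against 14, 15 and 16 in the control libraries, again without overlap. The log2 fold change was 2.21 (SE 0.26, adjusted p = 3.21e-08 by edgeR). Its 3′ end overlaps STX18 on the opposite strand, whose reads summed to 1469 in knockdown and 1497 in control libraries.

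SYP (ENSG00000102003, chromosome X, 49187815 to 49200218, minus strand) encodes synaptophysin, a membrane protein of small vesicles. It had 39, 16 and 37 reads in the FOXA1 knockdown libraries, against 24, 36 and 31 in the control libraries, and the groups overlapped. The log2 difference was -0.02 with a 95% interval of -0.65 to 0.60 (adjusted p = 0.96 by edgeR), so a change of up to about that size in either direction could not be told from none at this depth.

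TUBB3 (ENSG00000258947, chromosome 16, 89921392 to 89938761, plus strand) encodes the neuronal class III beta tubulin. It had 26, 16 and 15 reads in the FOXA1 knockdown libraries, against 17, 4 and 4 in the control libraries. Control replicate 1 lay within the knockdown range. The log2 fold change was 1.14 (SE 0.47, adjusted p = 0.045 by edgeR), and all 3 knockdown libraries but 1 control library reached the minimum count. The call was lost without knockdown replicate 1 or 2 (adjusted p = 0.188 and 0.0715) and without control replicate 2 or 3 (0.189 and 0.149). Without control replicate 1 the value was 2.18 (adjusted p = 0.00171). DESeq2 gave adjusted p = 0.101, the fit without a filter 0.0515, and the fit of all 12 libraries 0.116.

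SCG5 (ENSG00000166922, chromosome 15, 32641676 to 32697098, plus strand) encodes 7B2, a chaperone of the prohormone convertase PCSK2. It had 2, 4 and 5 reads in the FOXA1 knockdown libraries, against 30, 10 and 12 in the control libraries. Every knockdown library lay below every control library, and the mean was 0.211 ± 0.092 FPKM in knockdown and 1 ± 0.64 FPKM in control cells (SD, n = 3 each). Too few libraries reached the minimum count for the filtered test of the pair. Without a filter the log2 fold change within the pair was -2.23 (SE 0.56, adjusted p = 4.73e-04 over 34174 genes). In the fit of all 12 libraries, where 19.4% of 15921 tested genes were called lower, the log2 fold change was -2.23 (SE 0.60, adjusted p = 0.00721 by edgeR). SCG5 entered that fit through 2 FOXA1 control, 3 TRIM28 control and 1 TRIM28 knockdown libraries. No FOXA1 knockdown library reached the minimum count, so the gene was tested there mainly through the groups where it was high. The call in the fit of 12 libraries was lost without control replicate 1, which held 30 of the 52 control reads (-1.54, adjusted p = 0.072).

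The granins and INSM1 were near the limit of detection. CHGA (ENSG00000100604, chromosome 14, 92923150 to 92935285, plus strand), the classical granule protein and serum marker, had 3, 8 and 6 reads in FOXA1 knockdown libraries, against 2, 6 and 4 in control libraries. CHGB (ENSG00000089199, chromosome 20, 5911510 to 5925353, plus strand) had 1, 2 and 2 reads in knockdown libraries, against 0, 0 and 1 in control libraries. INSM1 (ENSG00000173404, chromosome 20, 20368104 to 20370949, plus strand), a transcription factor of neuroendocrine differentiation, had no read in the knockdown libraries, against 1, 0 and 0 in the control libraries. None of these 3 genes passed the filter. Without it, the adjusted p was 0.695 for CHGA, 0.492 for CHGB and 0.536 for INSM1, and with at most 8 reads in any of these libraries only large changes could have been seen. A count of 0 allows up to 3 reads per library, a limit that covers counting error only.

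The TRIM28 knockdown was compared with its own control to ask which genes depend on TRIM28. ENO2, SYT4 and NSG1 rose here as well, by 2.52, 2.68 and 2.42 times, and the other tested members did not pass. Of the 9 members, 6 were tested, and 3 were called higher and none lower, where 13.3% of 14981 tested genes were called higher and 13.3% lower. Without replicate 3 of the knockdown, 21.9% of the same genes were called higher and 23.9% lower, and 4 of the 6 members were called higher and 1 lower. As the members were chosen with earlier results of these data known, these counts too are a description only.

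ENO2 had 590, 512 and 462 reads in the TRIM28 knockdown libraries, against 197, 277 and 164 in the control libraries. The groups did not overlap, and the log2 fold change was 1.33 (SE 0.16, adjusted p = 7.86e-04 by edgeR). It was called whichever library was left out, with values of 1.22 to 1.56.

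SYT4 had 293, 248 and 92 reads in the TRIM28 knockdown libraries, against 99, 66 and 75 in the control libraries. In FPKM these were 5.79, 5.09 and 1.91 in knockdown, against 1.81, 1.2 and 1.52 in control libraries, so replicate 3 was only just above the highest control library. The log2 fold change was 1.42 (SE 0.37, adjusted p = 0.0254 by edgeR). Without knockdown replicate 3 it was 1.77 (adjusted p = 3.08e-11). The call was lost without any other single library: without knockdown replicate 1 or 2 (adjusted p = 0.0643 and 0.07) and without control replicate 1, 2 or 3 (0.0557, 0.0935 and 0.0753).

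NSG1 had 49, 64 and 25 reads in the TRIM28 knockdown libraries, against 15, 26 and 17 in the control libraries. Replicate 3 was again the lowest of the knockdown libraries, at 0.489 FPKM beside 0.914 and 1.24 FPKM, and the highest control library reached 0.444 FPKM. The log2 fold change was 1.27 (SE 0.39, adjusted p = 0.0335 by edgeR), and 1.55 without knockdown replicate 3 (adjusted p = 1.32e-04). Without knockdown replicate 1 or 2 the adjusted p was 0.0783 and 0.142, and without control replicate 1, 2 or 3 it was 0.131, 0.0604 and 0.107, so the call rested on each of these 5 libraries.

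SYP had 20, 18 and 23 reads in the TRIM28 knockdown libraries, against 22, 24 and 12 in the control libraries, which overlapped them. Its log2 difference was 0.12 with a 95% interval of -0.66 to 0.90 (adjusted p = 0.825 by edgeR).

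TUBB3 had 25, 36 and 9 reads in the TRIM28 knockdown libraries, against 16, 11 and 15 in the control libraries. Replicate 3 was below all controls and replicates 1 and 2 above them. The log2 difference was 0.76 (SE 0.47, adjusted p = 0.258 by edgeR), and without replicate 3 it was 1.13 and passed (adjusted p = 0.0207).

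SCG5 had 8, 3 and 13 reads in the TRIM28 knockdown libraries, against 26, 24 and 15 in the control libraries. All knockdown values lay below all control values, at 0.52 ± 0.33 FPKM in knockdown and 1.29 ± 0.28 FPKM in control cells (SD, n = 3 each). The gene entered the test through its 3 control libraries and 1 knockdown library. Its log2 difference of -1.37 (SE 0.49) narrowly missed the threshold (adjusted p = 0.0587 by edgeR). It passed without knockdown replicate 3 (-1.94, adjusted p = 0.00308) and in the fit of all 12 libraries (-1.38, adjusted p = 0.0493), where 18% of tested genes were called lower.

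CHGA had 4, 10 and 4 reads in the TRIM28 knockdown libraries, against 2, 3 and 6 in the control libraries. CHGB had 1, 0 and 2 reads in knockdown libraries and no read in the 3 control libraries. INSM1 had no read in any library of this pair. None of the 3 passed the filter, and without it the adjusted p was 0.593 for CHGA and 0.401 for CHGB.

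The knockdown libraries of TRIM28 did not all behave alike. In replicates 1, 2 and 3, SYT4 stood at 384%, 337% and 126% of its control mean, NSG1 at 267%, 362% and 143%, and ENO2 at 293%, 264% and 240%. FOXA1 itself stood at 50.3%, 45.4% and 72.5% and TRIM28 at 34%, 30.1% and 14.5% in the same 3 libraries. Replicate 3 thus had the least TRIM28 transcript, the most FOXA1 transcript, and the smallest rises of these 3 members. It also had the high stromal and neuronal transcripts given above, and the part of either in these values was not tested.

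**Figure D2:**
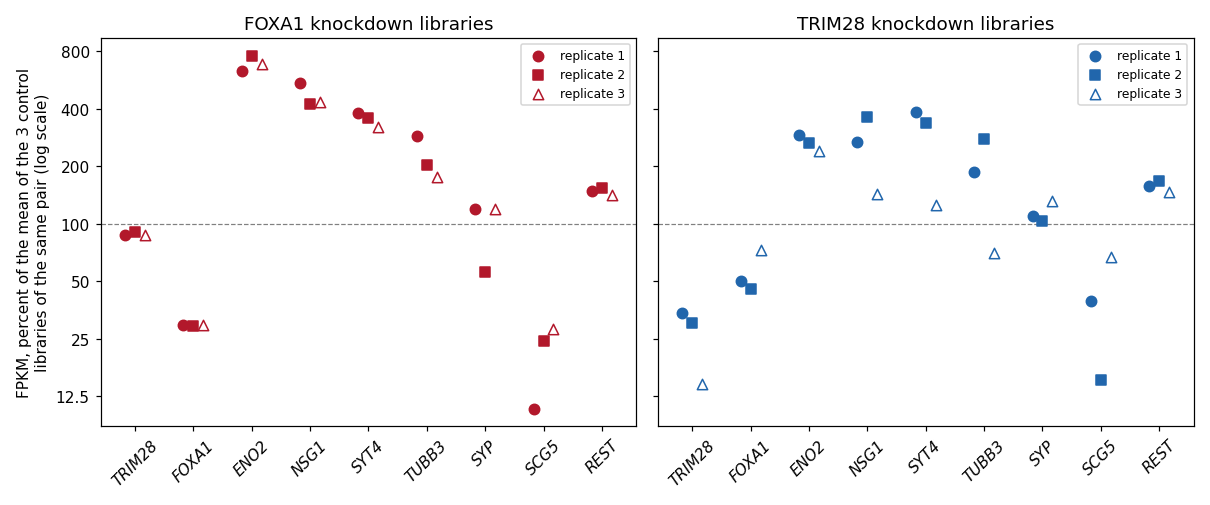
Level of each gene in every knockdown library as a percentage of the mean FPKM of the 3 control libraries of the same pair, on a log axis, with a dashed line at 100%. In the right panel replicate 3 (open triangles) has SYT4 at 126% and TUBB3 at 70.3%, against 384% and 186% in replicate 1.

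The effects of the knockdowns were then compared with each other in a fit of all 12 libraries, in which 5.98% of 15921 tested genes had a higher FOXA1 knockdown effect and 4.59% a lower one. The rise of ENO2 was larger in the FOXA1 knockdown, by 1.46 on the log2 scale (SE 0.21, adjusted p = 2.71e-04 by edgeR). This held whichever library was left out, with values of 1.25 to 1.57. No other member passed. For NSG1 the difference was 0.94 with a 95% interval of -0.04 to 1.92 (adjusted p = 0.223), and for SYT4 it was 0.39 with an interval of -0.57 to 1.35 (adjusted p = 0.642). Intervals for TUBB3 (-1.20 to 1.99), SYP (-1.15 to 0.88) and SCG5 (-2.56 to 0.86) were wider still, so differences of more than 1 log2 unit could have been missed.

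**Figure D3:**
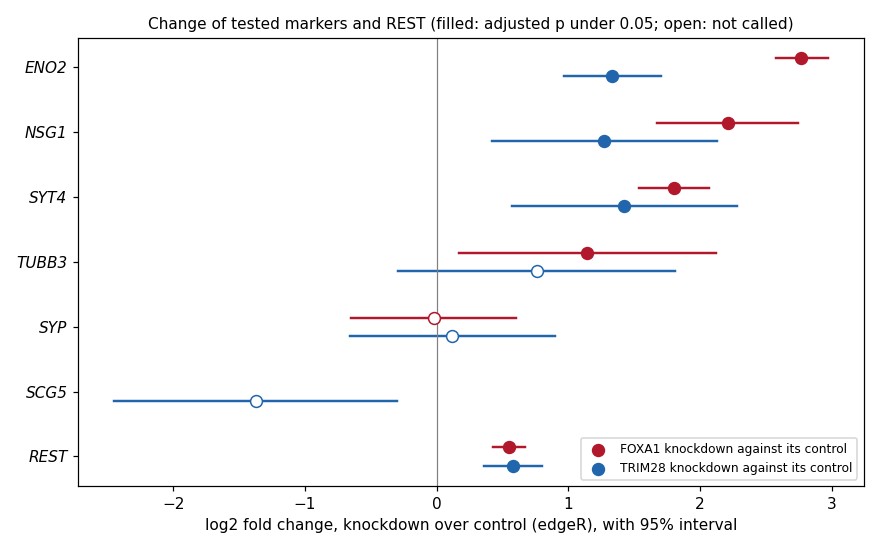
Log2 fold change of knockdown over control with its 95% interval for the tested members and REST, from edgeR's quasi-likelihood fit of each pair; filled points passed an adjusted p of 0.05 and open points did not. ENO2 is at 2.77 in the FOXA1 knockdown and 1.33 in the TRIM28 knockdown with intervals that do not overlap, and SCG5 has no FOXA1 point because too few libraries reached the minimum count.

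The groups of control shRNA cells were compared to see how far the group means of members differ without a targeting hairpin. Between FOXA1 control and TRIM28 control cells 0 of 14839 genes were called higher (0%) and 0 lower (0%) by edgeR, and DESeq2 also called 0. At an unadjusted p under 0.05 there were 635 genes (4.28%), none of them among the 6 tested members. Differences of the members were -0.23 for ENO2, -0.41 for NSG1, 0.04 for SYT4, 0.60 for SYP, -0.79 for TUBB3 and -0.36 for SCG5 on the log2 scale, with adjusted p of at least 0.992. The rises of ENO2 in the knockdowns (2.77 and 1.33) were larger in size than both bounds of its interval here (-0.57 to 0.10). That interval is for the difference of 2 group means and does not measure the spread between libraries.

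REST (ENSG00000084093, chromosome 4, 56907876 to 56966808, plus strand) rose in both knockdowns. It had 2318, 2099 and 2091 reads in FOXA1 knockdown libraries, against 1351, 1525 and 1479 in FOXA1 control libraries (0.55 on the log2 scale, SE 0.06, edgeR's adjusted p = 2.71e-09). In TRIM28 knockdown libraries it had 1998, 2040 and 1786 reads, against 1268, 1313 and 1398 in TRIM28 control libraries (0.58, SE 0.10, adjusted p = 0.00296). Neither pair overlapped, and the difference between the effects was -0.02 with an interval of -0.27 to 0.23 (adjusted p = 0.944). REST transcript and the transcripts of ENO2, NSG1 and SYT4 were thus higher in the same knockdown cells. The 3′ end of REST overlaps NOA1 on the opposite strand, whose reads summed to 1373 in FOXA1 knockdown against 1806 in FOXA1 control libraries, and 991 in TRIM28 knockdown against 1813 in TRIM28 control libraries.

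Other parts of the REST complex were mixed in direction. Of 15 listed genes, REST among them and all tested, 7 were called higher and 3 lower in the FOXA1 knockdown (median log2 fold change 0.08, against -0.02 over all tested genes). Over all tested genes 26.1% were called higher and 26.3% lower there. The corepressor gene SIN3B rose by 0.69 and the CoREST gene RCOR1 by 0.47. The 3 lower calls were EHMT2 at -0.33, KDM1A at -0.18 and SIN3A at -0.15. KDM1A and SIN3A were named after their values were seen. After TRIM28 knockdown 5 were called higher and 2 lower (median 0.17, against 0.00 over all tested genes), and 7 and 4 without replicate 3. Of all tested genes, 13.3% were called higher and 13.3% lower with replicate 3, and 21.9% and 23.9% without it. SIN3B rose by 0.39, which no longer passed without control replicate 2 or 3 (adjusted p = 0.0611 for each). The histone methyltransferase gene EHMT2 fell by 0.39, lost without control replicate 2 (adjusted p = 0.0652), and the phosphatase gene CTDSP1 fell by 0.41.

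Wider lists of neuroendocrine and neuronal genes are given here by their counts and medians, beside 26.1% called higher and 26.3% lower of all tested genes in the FOXA1 knockdown, and 13.3% and 13.3% in the TRIM28 knockdown. Without replicate 3 of the TRIM28 knockdown its shares were 21.9% and 23.9%. The median over all tested genes was -0.02 in the FOXA1 knockdown and 0.00 in the TRIM28 knockdown. Of 19 listed genes of granule cargo and prohormone processing, 8 were tested in the FOXA1 knockdown, and 3 were called higher and 3 lower (median -0.29). PTPRN, which encodes a granule membrane protein, rose by 1.66 to 0.769 ± 0.14 FPKM, against 0.239 ± 0.057 FPKM in control cells (SD, n = 3 each), and PAM, the peptide amidating enzyme, rose by 0.38. CPE, the carboxypeptidase of prohormone processing, fell by 0.81 and CADPS2, a granule priming factor, by 0.92. After TRIM28 knockdown 9 were tested, with 1 called higher and 1 lower (median -0.12; 1 and 2 without replicate 3). PAM rose by 0.53, which missed the threshold when control replicate 1 was left out (adjusted p = 0.053), and CADPS2 fell by 0.98. The granins SCG2 and SCG3 and the convertases PCSK1 and PCSK2 did not pass the filter in either pair, and each averaged under 0.25 FPKM in all 4 groups.

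Of 20 listed genes of synaptic vesicles and exocytosis, 11 were tested in the FOXA1 knockdown, and 3 were called higher and 5 lower (median -0.34), where 26.1% and 26.3% of all tested genes were. RAB3A, a vesicle GTPase, fell by 0.92, its paralogue RAB3B by 0.35 and the priming factor UNC13B by 0.40. The 3 higher calls, named after their values were seen, were VAMP1 at 0.83, STX1A at 0.53 and RAB3D at 0.20. With TRIM28 knocked down, 1 of 11 was called lower and none higher (median -0.08; 2 lower and 1 higher without replicate 3). That gene was again RAB3A, at -0.64 (adjusted p = 0.0283), and its call was lost without knockdown replicate 1 or 2 (adjusted p = 0.0712 and 0.0868) or control replicate 1 or 2 (0.0885 and 0.125).

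Neuronal structural and surface genes included the member of these lists with the highest fold. L1CAM, an axonal adhesion molecule, averaged 2.04 ± 0.063 FPKM in FOXA1 knockdown and 0.137 ± 0.03 FPKM in FOXA1 control cells (SD, n = 3 each), a log2 fold change of 3.85 (SE 0.23, adjusted p = 1.80e-14 by edgeR). It averaged 0.652 ± 0.19 FPKM in TRIM28 knockdown and 0.157 ± 0.05 FPKM in TRIM28 control cells, a log2 fold change of 1.96 (SE 0.38, adjusted p = 0.00489). The FOXA1 effect on L1CAM exceeded the TRIM28 effect by 1.91 (adjusted p = 0.00796). Of 9 tested genes of this list, 4 were called higher and 3 lower in the FOXA1 knockdown (median -0.35), where the microtubule gene MAPT rose by 1.03, MAP2 fell by 0.61 and DPYSL3 by 0.76. TRIM28 knockdown left 2 called higher and 2 lower of 9 (median 0.29; 3 and 2 without replicate 3). MAP1B, another microtubule gene, rose by 0.59 here and by 0.93 in the FOXA1 knockdown (adjusted p = 1.80e-05 by edgeR). DPYSL3 fell by 0.42, which missed the threshold without control replicate 2 (adjusted p = 0.073). MAP2 fell by 0.52 and missed it with library size only (0.0859), without knockdown replicate 2 (0.0532) and without control replicate 1, 2 or 3 (0.0959, 0.105 and 0.131).

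Of 22 listed transcription factors and regulators of neuroendocrine differentiation, 11 were tested in the FOXA1 knockdown, and 2 were called higher and 6 lower (median -0.17), beside 26.1% and 26.3% of all tested genes. HES6, a Notch pathway factor, fell by 1.43, the Notch ligand gene DLL3 by 0.94, the imprinted gene PEG10 by 1.06 and the Polycomb methyltransferase gene EZH2 by 0.44. The other 2 lower calls were small, at -0.17 for ONECUT2 and -0.13 for AURKA. The 2 higher calls were POU2F3 at 1.01 and SRRM3 at 0.95. ONECUT2, AURKA, POU2F3 and SRRM3 were named after their values were seen. In TRIM28 knockdown cells 1 was called lower and 1 higher of 11 (median -0.04; 4 and 2 without replicate 3). HES6 fell by 1.38, and PROX1, a homeodomain factor, rose by 1.67 to 0.365 ± 0.034 FPKM, against 0.109 ± 0.028 FPKM in control cells (SD, n = 3 each). NEUROD1, SOX2 and the splicing factor gene SRRM4 did not pass the filter in either pair and averaged under 0.08 FPKM in every group.

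**Figure D4:**
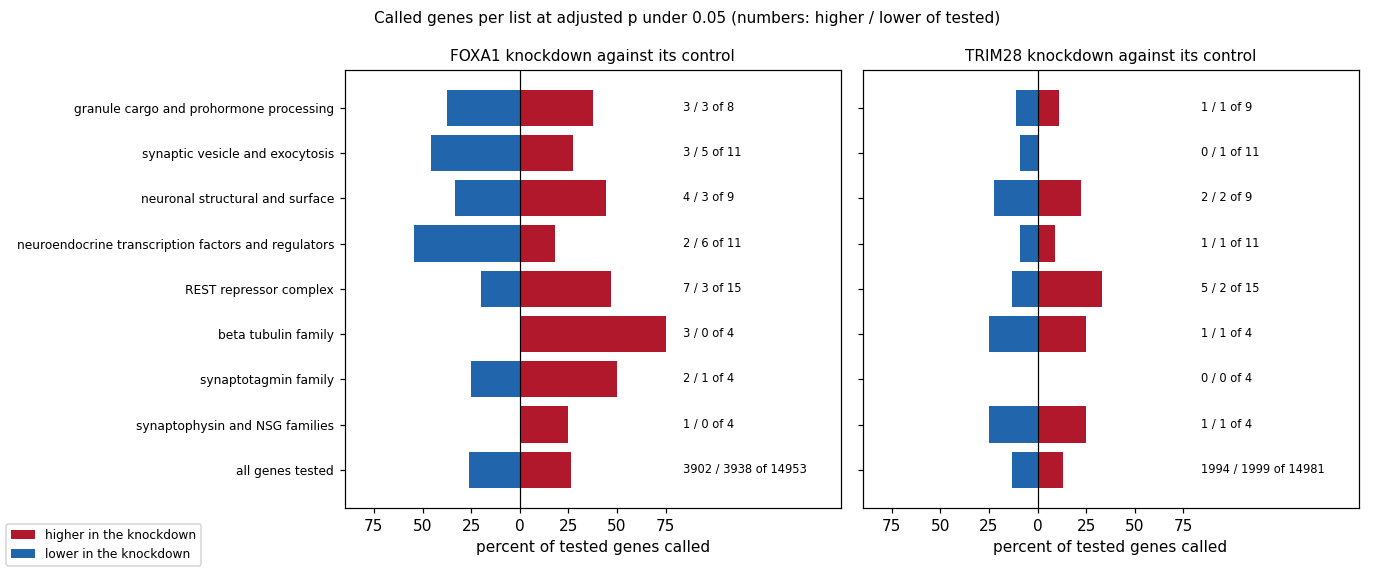
Percentage of tested genes called higher (right, red) or lower (left, blue) in 8 lists, the enolases left out, for each knockdown at an adjusted p under 0.05, with the counts printed beside the bars and all tested genes in the bottom row. Most lists have calls on both sides, such as 4 higher and 3 lower of 9 neuronal structural and surface genes in the FOXA1 knockdown.

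Paralogues of the members did not all move with them. ENO1, the ubiquitous enolase, rose by 0.37 in the FOXA1 knockdown, and ENO3, the muscle enolase, fell by 0.46 there and by 0.80 in the TRIM28 knockdown. ENO1 averaged 3110 FPKM in FOXA1 knockdown and 2390 FPKM in FOXA1 control cells, far above ENO2 at 32.4 FPKM in the knockdown. Of 4 tested synaptotagmin genes other than SYT4, SYT17 rose by 2.85 and SYT7 by 0.70 in the FOXA1 knockdown, and SYT1 fell by 1.06. Of all tested genes 26.1% were called higher and 26.3% lower there. The SYT1 call was lost without knockdown replicate 1 or 3 (adjusted p = 0.08 and 0.108), without control replicate 3 (0.155), with DESeq2 (0.0592) and in the fit of 12 libraries (0.0571). In TRIM28 knockdown cells SYT17 (0.94, adjusted p = 0.114) and SYT7 (0.39, adjusted p = 0.161) did not pass, and both passed without replicate 3 (1.29 and 0.61). Without that library 21.9% of all tested genes were called higher and 23.9% lower. The FOXA1 effect on SYT17 exceeded the TRIM28 effect by 1.91 (adjusted p = 0.00888).

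Beta tubulin genes other than TUBB3 rose in 3 of 4 tested cases in the FOXA1 knockdown: TUBB6 by 1.67, TUBB2A by 0.98 and TUBB4B by 0.79. Of all tested genes 26.1% were called higher there. After TRIM28 knockdown TUBB6 rose by 0.66, though not past the threshold without control replicate 1 (adjusted p = 0.0676). TUBB fell by 0.81 to 206 ± 29 FPKM, against 344 ± 18 FPKM in control cells (SD, n = 3 each). Without replicate 3, TUBB4B and TUBB2A also fell, which made 3 lower and 1 higher. In that fit 23.9% of all tested genes were called lower and 21.9% higher. By the test of the difference, all 4 of these tubulin genes had a higher effect in the FOXA1 knockdown than in the TRIM28 knockdown. The differences ran from 0.74 for TUBB to 1.19 for TUBB2A. Of all 15921 genes tested for the difference, 5.98% had a higher FOXA1 knockdown effect and 4.59% a lower one. TUBB1, which was tested in neither pair, went the other way at -1.41 and did not pass (adjusted p = 0.29 by edgeR). Of 4 tested relatives of SYP and NSG1, SYPL1 rose by 0.42 in the FOXA1 knockdown. It also rose by 0.27 after TRIM28 knockdown, and missed the threshold under the replicate block (adjusted p = 0.0536), without knockdown replicate 1 or 2 (0.0727 and 0.0805) and without control replicate 1, 2 or 3 (0.123, 0.114 and 0.061). SYNGR3, a synaptic vesicle protein gene, fell by 0.93 in the same comparison.

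Genes whose levels ran most like each member over the 12 libraries were found by Pearson correlation of log2 CPM among 14134 other genes, as a description. The points fall into the 4 groups, so a high r mostly reflects a shared difference between them. L1CAM had the highest r with ENO2 (0.993), followed by GDE1 (0.991) and FOSL2 (0.988). For NSG1 these were CXXC5 (0.972), SIDT2 (0.97) and AMOTL2 (0.968), and for SYT4 they were ARPP19 (0.984), LDB1 (0.982) and SGK2 (0.982). TEPSIN (0.95), SLC1A3 (0.944) and COL9A2 (0.943) were closest to SCG5. For TUBB3, at few reads, CARNS1 reached 0.908, and for SYP no gene exceeded 0.779 (PRKAR1B). No gene appeared among the closest 3 of more than 1 member.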

How the data were processed

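Per the labels' protocols, poly(A) RNA of LNCaP cells was sequenced in 12 libraries. The authors deposited read counts per gene symbol and FPKM values, on build GRCh38 (hg38) per the submitters' processing notes. Which aligner and counter were used, and whether strand was, the sources used here do not say, so reads of overlapping genes cannot be told apart. In the deposited FPKM table, values were counts scaled by library total and a single length of the gene for 38196 of 38196 genes (relative tolerance 0.001). A value is repeated on each line of a shared symbol (453 symbols), so each symbol was kept once. The number of value columns without a sample was 0.

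The tests used edgeR 4.0.16 in R 4.3.3 with TMM scaling, filterByExpr (minimum count 10, total 15) and robust quasi-likelihood F-tests, two-sided, per pair. The difference between the effects used all 12 libraries with 4 group means. Standard errors are the log2 fold change divided by the square root of F, and intervals are 95%. FPKM were described and not tested. The fits were tested on simulated counts. Alternatives were DESeq2 1.42.0, RLE factors, library size only, no filter, all 12 libraries, a replicate block, and leaving out each library, with the genes tested kept as in the full fit. Promoters came from RefSeq (GRCh38.p14).

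No pair of replicates agreed within sampling noise, and same-numbered libraries did not deviate together. Every library has the same batch label. The labels do not say how replicate cultures were made, so p-values measure only the spread between these libraries. The members and the gene lists were chosen with earlier results of these data known. Named genes were all members, FOXA1, TRIM28 and REST, up to 4 called genes with the smallest p of each list in each knockdown (some are not reported here), and the 3 genes closest to each member by correlation. Genes given as not passing the filter, single stromal and leukocyte markers, those of replicate 3 of the TRIM28 knockdown, and those of the difference were named after their values were seen. The list genes marked as such above were too.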

Additional observations from a re-analysis of the deposited data

Results flagged for a closer look

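ENO2 was the member whose change differed between the knockdowns by a test of the difference itself. It was higher in FOXA1 knockdown than in FOXA1 control cells by a log2 fold change of 2.77, and higher in TRIM28 knockdown than in TRIM28 control cells by 1.33. The FOXA1 effect minus the TRIM28 effect was 1.46 (SE 0.21; in edgeR's fit of 12 libraries the adjusted p was 2.71e-04). All 3 libraries of each knockdown lay above all 3 of their controls. FOXA1 knockdown libraries held 29.4%, 29% and 29.5% of the control mean of FOXA1 transcript, and TRIM28 knockdown libraries 50.3%, 45.4% and 72.5%; the part of this in the difference was not tested.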

How the results depend on the processing

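For the members and REST, 143 of the values obtained with another scaling, tool, filter or fit kept their direction and their side of the threshold. TUBB3 in the FOXA1 knockdown lost its call in 3 of them, SCG5 in the TRIM28 knockdown gained one in the fit of 12 libraries, and 0 reversed. Leaving out a library reversed values that were not called: SYP in the FOXA1 knockdown (-0.18 to 0.26) and in the TRIM28 knockdown (-0.09 to 0.30), SYP (-0.30 to 0.15) and REST (-0.11 to 0.05) in the difference, and SYT4 between controls (-0.09 to 0.19). The cause of these changes was not tested. Leaving out a library gave 984 to 3287 genes called higher and 874 to 3580 lower in the TRIM28 knockdown, both highest without knockdown replicate 3, against 1994 and 1999. In the difference it gave 729 to 2106 higher and 452 to 1477 lower, against 952 and 731, and between controls 0 to 1 higher and 0 to 1 lower. Without a filter, 3 genes were called higher and 5 lower between controls. With library size only, 63.4% of TRIM28 calls were higher (49.9% with TMM) and 40% of those in the difference (56.6% with TMM), where 1126 were lower; the median of all genes was then 0.08 and -0.07, and 0.10 in the TRIM28 knockdown without a filter. Without TRIM28 knockdown replicate 3, an alternative chosen after seeing the data, called genes became 2 lower for granule cargo, 1 higher and 2 lower for synaptic vesicle, 2 higher and 4 lower for transcription factors, 4 lower for the REST complex, 3 lower for beta tubulins, 2 higher for synaptotagmins and 2 lower for relatives of SYP and NSG1. Leaving out libraries for SCG5 in the fit of 12 was also chosen after seeing the data (-2.51 to -1.54). Same-numbered libraries correlated within -0.08 to 0.08 in their deviations, so the numbers do not pair them. With the replicate block, calls were 3938 higher and 4059 lower in the FOXA1 knockdown, 1851 and 1995 in the TRIM28 knockdown, 950 and 647 in the difference, and 0 between controls. No call of a member changed under the block (TUBB3 in the FOXA1 knockdown 1.22, adjusted p = 0.0203). Depth limits CHGA, CHGB and INSM1, which no main comparison tested.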
